A study of Mus musculus with 12 samples.

Results

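The 4 libraries of mouse embryonic fibroblasts treated with the flavone apigenin did not form 1 group, since replicates 1 and 3 resembled each other, replicates 2 and 4 resembled each other, and many genes lay apart between these pairs. The members are the 4 apigenin libraries of the 12 libraries in the series, and the 12198 of 24458 genes whose mean normalized count over all 12 was at least 10. The pairs were chosen by the libraries' measured levels, in these same values, and only 2 libraries stand on each side. The labels give no such groups, so the pairs are described library by library, with no average, error or test between them. Just inside the count minimum lay Kcnma1 and Osbpl10 (mean normalized count 10.0 each), and just outside it Slc35g2 (9.98) and Col8a2 (9.99).

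Fibroblasts from mouse embryos were grown in flasks, passaged up to the 5th passage, and kept for 24 h in control medium (untreated), in apigenin at 50 µM or in chrysin at 50 µM, with 4 libraries in each group. The growth protocol states that proliferation of these cells slows beyond that passage. The labels do not state the mouse strain, any pooling of embryos or the solvent, so an effect of solvent cannot be told apart from that of either flavone. Nothing in the labels ties the 4 libraries of a group to separate cultures. Their p-values therefore reflect the spread among these libraries only, which may be technical.

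Apigenin and chrysin are plant flavones of the same ring skeleton, and chrysin lacks the hydroxyl group that apigenin bears on its B ring. In dividing fibroblasts, genes of mitosis are transcribed late in the cell cycle, through promoter elements bound by the DREAM and FOXM1 complexes. Immediate early genes are switched on within minutes of a growth factor or stress signal without new protein synthesis, and feedback phosphatases then damp the MAP kinase pathway that drives many of them.

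Levels are log2 of the normalized read count plus 1. Recovered totals were 4298640 to 15512635 reads per library, and apigenin replicates 1 to 4 held 6651676, 15512635, 10013188 and 7899623, so depth did not follow the pairs. A gene with no read may still be present at up to 3 reads, or a normalized count of 1.44 in apigenin replicate 2 and 3.46 in replicate 1, which covers counting error only. Fibroblast markers were read in all libraries, and 13 of 13 were kept. Untreated replicate 1 stood apart from the other untreated libraries in many genes named here, and its value is given where that touches a result.

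Across the 12198 genes the SD of the log2 difference between apigenin replicates 1 and 3 was 0.41, and between replicates 2 and 4 it was 0.36. Between libraries of different pairs it was 0.69 to 0.73. Untreated libraries differed from each other by SDs of 0.35 to 0.50 and chrysin libraries by 0.50 to 0.61, so each apigenin pair was about as close as replicates of another group and the pairs were farther apart than any 2 libraries of one. Neither pair was 1 library deposited again. The chi-square of recovered reads per degree of freedom was 5.14 within replicates 1 and 3 and 4.50 within replicates 2 and 4. It was 3.23 to 7.74 between untreated libraries, 3.87 to 17.9 between chrysin libraries and 26.5 to 41.5 across the pairs.

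**Figure D1:**
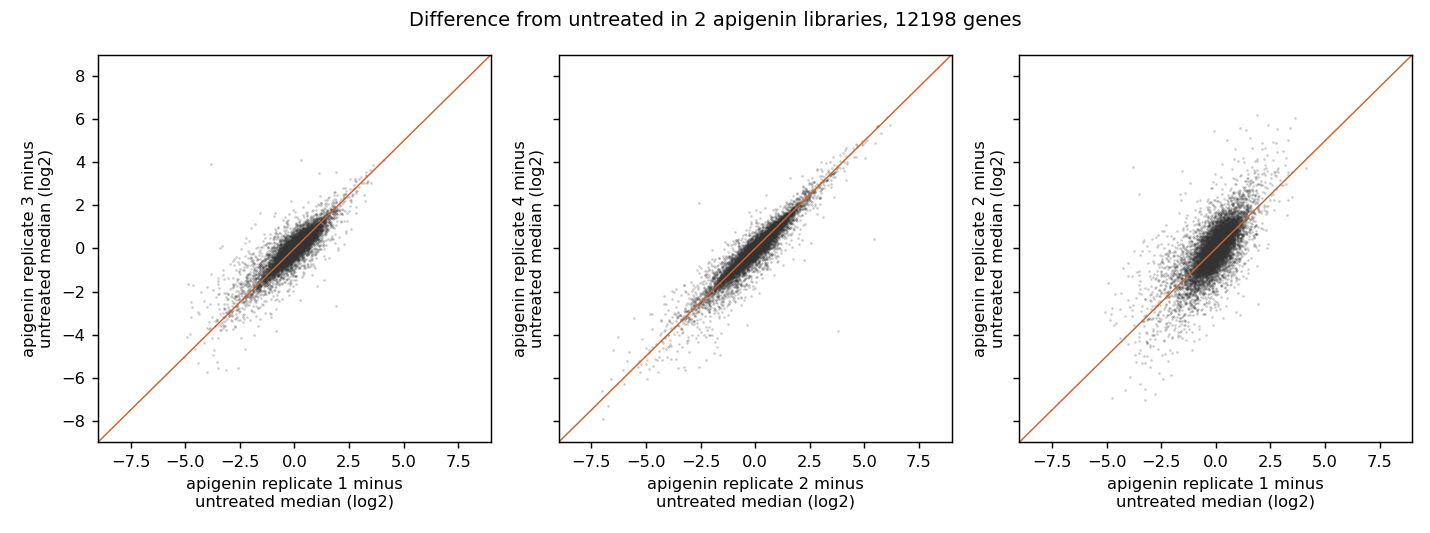
Each point is 1 of 12198 genes, and the axes give the level in 1 apigenin library minus the median of the 4 untreated libraries (log2). Replicates 1 and 3 (left) and 2 and 4 (middle) lie near the diagonal, with SDs of the difference of 0.41 and 0.36, while replicates 1 and 2 (right) scatter with an SD of 0.72.

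For each gene the gap is the distance, on the log2 scale, between the nearest libraries of the pairs, and it is 0 where they overlap. Replicates 2 and 4 both lay above replicates 1 and 3 in 4220 genes (34.6%) and below them in 4156 (34.1%), and the pairs overlapped in 3822. With a gap of at least 1, which is at least a doubling between the nearest libraries, 325 genes (2.66%) were higher in replicates 2 and 4 and 355 (2.91%) in replicates 1 and 3. A gap of at least 2 was found in 56 and 51 genes. The 4 apigenin values spanned at least 1 in 2559 genes (21% of those kept), beside 1205 (9.88%) among untreated and 2186 (17.9%) among chrysin libraries. They spanned at least 2 in 508 genes, beside 187 among untreated and 524 among chrysin libraries.

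The pairs took different positions relative to the untreated libraries. Among the 355 genes higher in replicates 1 and 3, both pairs lay below all untreated values in 173 (48.7%, beside 22.8% of all genes kept), replicates 2 and 4 alone lay below in 85 (23.9%, beside 10.8%), and the pairs lay on opposite sides of untreated in 67 (18.9%, beside 3.00%). Among the 325 genes higher in replicates 2 and 4, those replicates alone lay above untreated in 130 (40.0%, beside 12.3%), both pairs lay above in 103 (31.7%, beside 22.2%), and the pairs lay on opposite sides in 43 (13.2%). Both of replicates 1 and 3 were nearer the untreated median than replicates 2 and 4 in 245 of the 325 and 294 of the 355 genes, and the reverse held in 62 and 35. Over all genes kept, SDs of the difference from single untreated libraries were 0.80 to 0.87 for replicates 1 and 3 and 1.06 to 1.16 for replicates 2 and 4.

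Mitosis genes were the list that divided the libraries most, by counts and by the median gap. Of 42 kept mitosis genes, 28 had a gap of at least 1 and all 28 were higher in replicates 1 and 3, where 2.91% of all genes were. The median gap was -1.22, a negative gap meaning that replicates 1 and 3 were higher, beside a median of 0 over all genes kept. The mean level of the list was 7.08, 5.78, 7.10 and 5.69 in apigenin replicates 1 to 4, 6.27 to 6.61 in untreated libraries and 6.96 to 7.20 with chrysin. The first of these pairs thus lay above every untreated library and among the chrysin libraries, and replicates 2 and 4 lay below both. The highest untreated value was that of replicate 1, and the others were 6.27 to 6.35. In bulk RNA, fewer cells of a type, or here fewer cells in mitosis, and less RNA per cell cannot be told apart.

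Ccnb1, the mitotic cyclin B1, stood at 7.71, 5.69, 7.33 and 5.77 in apigenin replicates 1 to 4, at 6.04 to 6.52 in untreated libraries and at 6.82 to 7.39 with chrysin. No library of one apigenin pair overlapped the other or the untreated range. The group difference from untreated was 0.37 ± 0.38 (SE, limma adjusted p = 0.442, n = 4 per group), which was not called.

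Anln, the anillin of the cleavage furrow, had levels of 8.71, 6.67, 8.57 and 6.48 in the apigenin libraries, 8.17 to 8.43 untreated and 8.47 to 8.80 with chrysin. Prc1, which bundles microtubules of the central spindle, was at 8.37, 6.84, 8.45 and 6.58, with 7.58 to 7.99 untreated and 8.35 to 8.71 with chrysin. In both genes replicates 1 and 3 lay above all untreated libraries and within the chrysin range, and replicates 2 and 4 lay below every other library.

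Kif20a, a kinesin of cytokinesis, read 8.95, 7.48, 8.94 and 7.67 beside 8.01 to 8.53 untreated, and Top2a, the topoisomerase that untangles chromosomes, read 9.23, 7.77, 9.06 and 7.91 beside 8.04 to 8.39. Top2a rose with chrysin (1.00 ± 0.28, adjusted p = 0.00897), where its values were 9.09 to 9.42 and did not overlap untreated. Of the 42 mitosis genes 12 rose with chrysin and 0 fell, where 26.3% of all genes rose and 26.7% fell. Fitted on the chrysin and untreated libraries alone, 28 rose and 0 fell, where 28.8% and 29.1% of all genes did. With apigenin 4 rose and 2 fell, where 23.0% and 23.2% of all genes did.

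Not every member followed. Spc25, a subunit of the NDC80 kinetochore complex, stood at 7.78, 8.64, 7.77 and 8.63, above untreated (6.09 to 6.57) in all 4 apigenin libraries and highest in replicates 2 and 4. Cks2, a small partner of CDK1, stood at 7.14, 7.27, 7.15 and 7.48, above untreated (5.59 to 6.01) with a gap of 0.12. Both genes were chosen for the text after their values were seen, and they are the 2 mitosis members in which replicates 2 and 4 both lay above replicates 1 and 3.

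**Figure D2:**
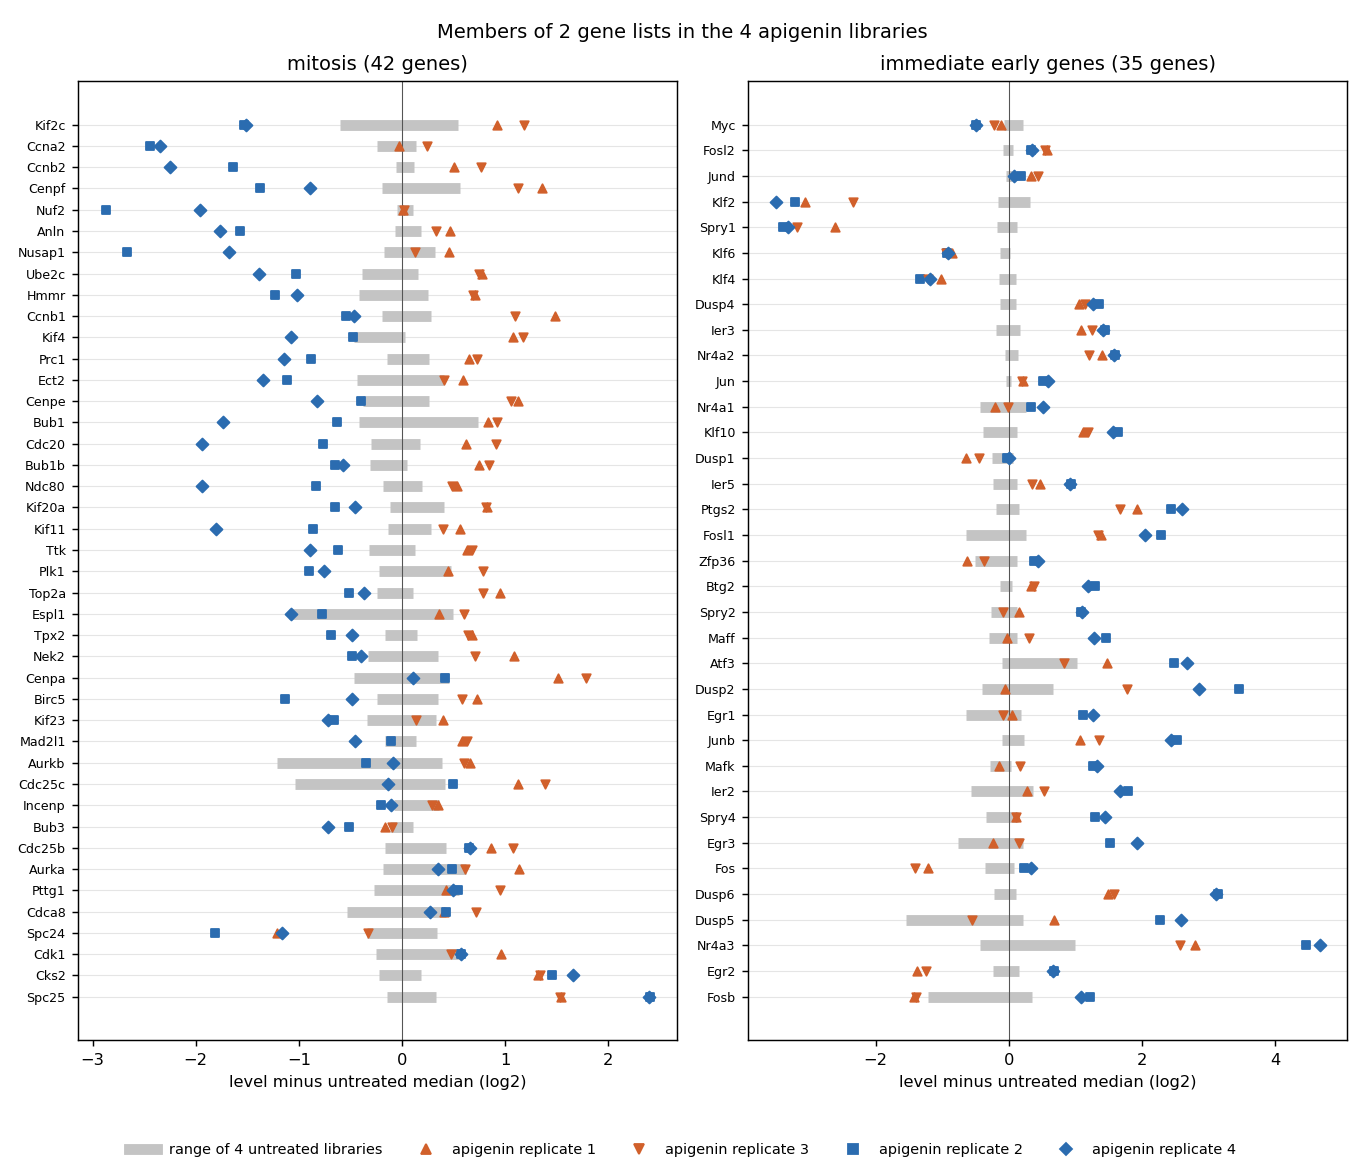
Each row is 1 kept gene of the mitosis list (left, 42 genes) or the immediate early list (right, 35 genes), and the horizontal axis gives its level minus the untreated median (log2), with grey bars for the range of the 4 untreated libraries, orange triangles for apigenin replicates 1 and 3, and blue squares and diamonds for replicates 2 and 4. In 28 mitosis genes the orange symbols lie at least 1 above the blue ones, and in 14 immediate early genes the blue symbols lie at least 1 above the orange ones.

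Promoters of the mitosis list are shown because they share short elements. The cell cycle homology region (CHR) is bound by the MuvB core of the DREAM complex, and CCAAT boxes are bound by NF-Y. In RefSeq promoter windows (GRCm38.p6, 250 bases before to 50 after a gene's start, 1 window per gene), CHR letters (TTTGAA or TTCGAA, either strand) were found in 26 of 35 matched mitosis promoters (74.3%) and in 1284 of 9751 promoters of all kept genes (13.2%). The letters CCAAT, on either strand, were found in 27 of the 35 (77.1%) and in 38.5% of all promoters. Among genes with a gap of at least 1, CHR letters were found in 71 of 273 promoters (26%) where replicates 1 and 3 were higher and in 22 of 234 (9.4%) where replicates 2 and 4 were higher. Without the mitosis and DNA replication lists, the first share was 52 of 242 (21.5%). Those lists do not hold every gene of mitosis, and Dlgap5 (gap of -2.12), for example, is in neither. The median GC content of the longest coding transcript was 46.8% in genes higher in replicates 1 and 3, 52.9% in the other direction and 50.2% over all kept genes, and the part of base composition in these shares was not tested. A match is a description of letters and not of a bound site.

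The 4 windows printed here belong to the mitosis genes of largest gap that hold both elements, and the genes were chosen after their values were seen. Each is read 5′ to 3′ on the gene's own strand, and capitals mark CHR and CCAAT letters on either strand. Ube2c holds 6 CCAAT matches, 2 of which share bases.
Ccnb2 chr9:70421505-70421804, minus strand: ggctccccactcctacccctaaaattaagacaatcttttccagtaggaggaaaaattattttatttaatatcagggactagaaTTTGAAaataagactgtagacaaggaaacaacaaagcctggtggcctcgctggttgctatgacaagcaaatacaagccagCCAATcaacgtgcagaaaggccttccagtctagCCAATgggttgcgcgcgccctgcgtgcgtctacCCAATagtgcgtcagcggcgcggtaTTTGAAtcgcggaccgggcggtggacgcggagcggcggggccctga
Cenpf chr1:189688037-189688336, minus strand: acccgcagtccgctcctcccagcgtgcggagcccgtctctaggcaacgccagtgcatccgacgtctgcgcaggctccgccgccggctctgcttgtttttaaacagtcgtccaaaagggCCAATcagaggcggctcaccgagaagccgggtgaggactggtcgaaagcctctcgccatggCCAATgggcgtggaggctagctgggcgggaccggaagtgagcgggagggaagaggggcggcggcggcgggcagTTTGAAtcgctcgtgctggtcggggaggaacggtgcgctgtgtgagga
Ube2c chr2:164769679-164769978, plus strand: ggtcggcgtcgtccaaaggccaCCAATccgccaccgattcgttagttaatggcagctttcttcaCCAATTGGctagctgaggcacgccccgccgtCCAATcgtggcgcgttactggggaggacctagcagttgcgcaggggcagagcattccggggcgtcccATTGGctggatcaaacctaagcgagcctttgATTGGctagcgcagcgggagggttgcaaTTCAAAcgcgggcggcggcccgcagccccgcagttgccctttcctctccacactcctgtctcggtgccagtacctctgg
Hmmr chr11:40733388-40733687, minus strand: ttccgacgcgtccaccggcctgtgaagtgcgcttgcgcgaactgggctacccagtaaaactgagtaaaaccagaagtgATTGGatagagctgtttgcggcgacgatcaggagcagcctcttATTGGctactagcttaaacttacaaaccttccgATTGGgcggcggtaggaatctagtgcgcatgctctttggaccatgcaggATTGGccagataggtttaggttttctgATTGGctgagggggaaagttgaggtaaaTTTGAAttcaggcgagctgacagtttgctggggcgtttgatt

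Ccnb2, cyclin B2, stood at 7.09, 4.95, 7.35 and 4.33 in apigenin replicates 1 to 4, with 6.53 to 6.71 untreated and 6.88 to 7.54 with chrysin. Cenpf, a kinetochore protein, was at 7.84, 5.10, 7.60 and 5.58, with 6.28 to 7.03 untreated. Replicates 1 and 3 were above and replicates 2 and 4 below the untreated range in both genes, and replicates 2 and 4 lay 1.58 and 0.70 below it. Ube2c, the ubiquitin-conjugating enzyme of the anaphase-promoting complex, gave 7.78, 5.97, 7.75 and 5.61 around an untreated range of 6.61 to 7.16. Hmmr, the hyaluronan-mediated motility receptor that also binds spindle microtubules, gave 7.95, 6.01, 7.94 and 6.22 around 6.83 to 7.50. These promoters thus belong to genes that lay above untreated in one pair and below it in the other.

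DNA replication genes divided less than mitosis genes. Of 41 kept members 6 were higher in replicates 1 and 3 by a gap of at least 1, where 2.91% of all genes were. In the other direction 1 was higher in replicates 2 and 4, near the share of all genes (2.66%), and the median gap was -0.06. Rrm1, the large subunit of ribonucleotide reductase, stood at 8.79, 7.29, 8.85 and 7.24, below untreated (8.96 to 9.10) in all 4 libraries and lowest in replicates 2 and 4, and its fall was called (-0.99 ± 0.33, adjusted p = 0.0251). Ccne1, the cyclin of S phase entry, ran the other way, at 7.68, 8.63, 7.43 and 8.84 with 7.18 to 7.68 untreated and 8.99 to 9.18 with chrysin. Replicates 2 and 4 were nearer the chrysin values, replicates 1 and 3 lay at or within the edge of the untreated range, and the rise with apigenin was called (0.70 ± 0.25, adjusted p = 0.031). Gins4 of the replicative helicase stood at 8.06, 8.46, 8.20 and 8.55 above 7.74 to 7.91 untreated, and its rise with apigenin was called (0.50 ± 0.13, adjusted p = 0.00445). Mcm4, a helicase subunit, was at 8.09, 7.78, 8.21 and 7.50 with 7.85 to 8.25 untreated, and was not called with apigenin (adjusted p = 0.659). Cdkn1a, the p21 inhibitor of cyclin-dependent kinases, stood at 12.46, 12.74, 12.57 and 12.69, close to untreated (12.46 to 12.54), and was not called (adjusted p = 0.227).

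Immediate early genes divided the libraries in the opposite direction. Of 35 kept members 14 had a gap of at least 1 and all 14 were higher in replicates 2 and 4, where 2.66% of all genes were. The median gap was 0.75. The mean level of the list was 7.62, 8.50, 7.65 and 8.51 in apigenin replicates 1 to 4, 7.26 to 7.57 untreated and 8.21 to 8.42 with chrysin. Replicates 1 and 3 lay just above the untreated libraries, and replicates 2 and 4 above the chrysin libraries. The lowest untreated value was that of replicate 1, with the others at 7.49 to 7.57.

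Egr1, a zinc finger transcription factor, stood at 10.97, 12.05, 10.85 and 12.20, with 10.29 to 11.12 untreated and 12.19 to 12.37 with chrysin. Junb, a subunit of AP-1, stood at 9.48, 10.94, 9.77 and 10.86, with 8.32 to 8.64 untreated and 8.94 to 9.71 with chrysin. Egr1 thus lay within the untreated range in replicates 1 and 3, whereas Junb exceeded it in all 4 libraries and its rise was called (1.82 ± 0.30, adjusted p = 0.000457). Mafk, a small Maf protein, was at 8.09, 9.51, 8.41 and 9.57, below all chrysin values (10.18 to 10.37). Ier2 was at 7.97, 9.48, 8.23 and 9.37, and there the chrysin values (7.32 to 7.87) lay within the untreated range of 7.12 to 8.06, so that the high level of replicates 2 and 4 had no counterpart with chrysin.

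Fosb and Fos, AP-1 subunits chosen after their values were seen, put the untreated libraries between the pairs. Fosb stood at 4.52, 7.16, 4.55 and 7.03 with untreated values of 4.74 in replicate 1 and 5.88 to 6.30 in the others, and Fos at 5.79, 7.23, 5.59 and 7.33 with 6.65 to 7.07 untreated. Replicates 2 and 4 were above and replicates 1 and 3 below every untreated value in both. Of the 35 members 20 rose and 5 fell with apigenin, where 23.0% and 23.2% of all genes did. With chrysin 18 rose and 8 fell, where 26.3% and 26.7% of all genes did, so the number that fell was near the share over all genes.

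Hbegf, a growth factor that activates the EGF receptor, had the largest gap apart from Prl2c2 among the genes named by rule with replicates 2 and 4 higher. Its levels were 7.66, 10.25, 7.50 and 10.33 in the apigenin libraries, 8.33 to 8.41 untreated and 9.63 to 9.86 with chrysin. The nearest libraries of the pairs were 2.59 apart (6.02-fold), with replicates 1 and 3 below all untreated values and replicates 2 and 4 above all chrysin values. Prl2c2, a proliferin, stood at 5.20, 8.56, 5.11 and 8.65, with 9.20 to 9.49 with chrysin. Its untreated values were 5.93 in replicate 1 and 8.08 to 8.50 in the others, and near-identical copies of this gene make its level uncertain.

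Plau, the urokinase protease, was at 6.27, 8.53, 6.67 and 8.47, with 6.75 to 7.09 untreated and 9.45 to 9.61 with chrysin. Spp1, the secreted phosphoprotein osteopontin, was at 12.32, 14.06, 12.32 and 14.12, with 14.61 to 15.08 with chrysin and untreated values of 11.98 in replicate 1 and 13.14 to 13.22 in the others. In both genes the order was replicates 1 and 3, then 2 and 4, then chrysin, and both rose with chrysin (2.59 ± 0.45, adjusted p = 0.000587 and 2.03 ± 0.48, adjusted p = 0.00562). Pmaip1, the BH3-only protein NOXA, was at 9.25, 10.98, 9.21 and 11.02, where replicates 1 and 3 lay within the untreated range of 9.10 to 9.39 and replicates 2 and 4 above all chrysin values (10.37 to 10.76).

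Slc43a2, an amino acid transporter, Slc41a1, a magnesium transporter, and Vps37b, an ESCRT-I subunit, lay above untreated in all 4 libraries and farther in replicates 2 and 4. Slc41a1 was at 9.64, 11.31, 9.66 and 11.29 with 8.61 to 8.74 untreated. Vps37b was at 8.14, 9.84, 8.28 and 9.87 with 6.83 to 7.19 untreated, and Slc43a2 at 8.35, 10.18, 8.41 and 10.11 with 6.08 to 7.12. All 3 rose with apigenin, by 1.79 ± 0.36, 1.98 ± 0.36 and 2.50 ± 0.44 (adjusted p = 0.00228, 0.000839 and 0.000785). Gtf3c5, a subunit of the RNA polymerase III factor TFIIIC, was at 7.36, 8.89, 7.39 and 8.91 around 7.66 to 8.00 untreated, so that the pairs lay on either side. Slc5a7, the choline transporter, was at 5.25, 7.74, 4.60 and 7.99, with untreated values of 6.81 in replicate 1 and 8.76 to 8.85 in the others.

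Igf2, the imprinted fetal growth factor, had the largest gap among the named genes with replicates 1 and 3 higher. It stood at 14.06, 11.09, 13.84 and 11.10, with 13.73 to 14.36 untreated and 12.14 to 12.62 with chrysin. Untreated replicate 1 was the highest of its group at 14.36, with the others at 13.73 to 13.95. Apigenin replicates 1 and 3 lay within the untreated range, replicate 1 only through that library. Replicates 2 and 4, across a gap of -2.74 (6.67-fold), lay below every chrysin library. Fgf7, the keratinocyte growth factor, behaved alike at 8.94, 6.73, 8.85 and 6.35, with 8.96 to 9.25 untreated and 8.54 to 8.84 with chrysin, although replicates 1 and 3 lay just under the untreated range. Kitl, the ligand of the KIT receptor, stood at 10.41, 8.10, 10.18 and 8.18, with 9.40 to 9.54 untreated and 8.32 to 8.81 with chrysin. Here replicates 1 and 3 were above and replicates 2 and 4 below untreated.

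Sertad4, Igsf10, C1qtnf3 and the proteoglycan Dcn lay below untreated in all 4 apigenin libraries and lowest in replicates 2 and 4. Dcn, decorin, was at 8.75, 6.59, 8.84 and 7.06, with 10.39 to 10.70 untreated and 6.54 to 7.24 with chrysin, so replicates 2 and 4 overlapped the chrysin values. Sertad4 was at 9.26, 6.84, 9.21 and 6.99 with 9.81 to 9.96 untreated, and Igsf10 at 9.13, 6.91, 8.83 and 6.54 with 10.75 to 10.84. C1qtnf3 was at 9.49, 7.34, 9.43 and 7.66 with 10.73 to 11.19 untreated. These 4 genes fell with both flavones, and their falls with apigenin were 1.80 to 2.94 in size (adjusted p = 0.00071 to 0.0155).

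Plin4, a lipid droplet protein, was at 7.93, 6.11, 8.03 and 5.94 with 8.36 to 9.13 untreated, and the 4 values fell with apigenin as a group (-1.87 ± 0.44, adjusted p = 0.00499). Atoh8, a basic helix-loop-helix factor, was at 8.92, 7.11, 8.95 and 6.86 with 8.77 to 9.15 untreated. In Atoh8 replicates 1 and 3 did not leave the untreated range.

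**Figure D3:**
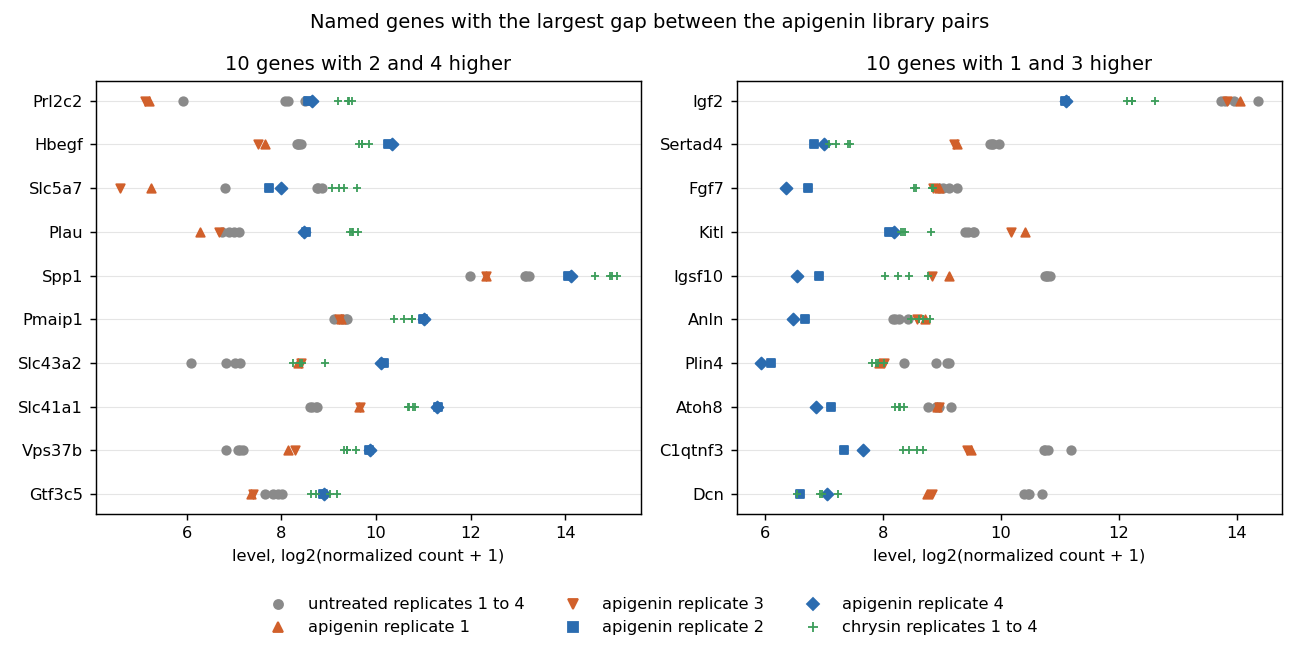
The 10 genes named by rule for the largest gap in each direction, with a mean level no lower than the median kept gene. Each library has 1 symbol, and the horizontal axis gives the level, log2 of the normalized count plus 1. Hbegf runs from 7.50 in apigenin replicate 3 to 10.33 in replicate 4 around untreated values near 8.4, and Igf2 from 11.09 in replicate 2 to 14.06 in replicate 1.

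In 13 genes (0.107%) the pairs lay on opposite sides of the untreated range by at least 0.5 each. Of these 7 were higher in replicates 1 and 3 (Kitl, Clec4d, Ube2c, Parpbp, Cenpf, Dlgap5 and Prr11), and 6 were higher in replicates 2 and 4 (Hbegf, Egr2, Hsd3b6, P2ry2, Dpf1 and Gldn). Hbegf and Kitl were named by rule and the others are named because they complete the count. Cenpf, Ube2c and Dlgap5 act in mitosis, Egr2 is an immediate early transcription factor, and P2ry2 is a nucleotide receptor. None of the 13 was called between apigenin and untreated by limma, and a gene whose pairs lie on opposite sides has a small group difference and a wide spread by construction. Over all genes kept, the 4 apigenin values lay together on one side of untreated in 5497 (45.1%).

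Cholesterol synthesis genes lay below untreated in both pairs and farther in replicates 2 and 4. Of 26 kept members 25 fell with apigenin and 1 rose, beside 23.2% and 23.0% of all genes. By some gap 20 were higher in replicates 1 and 3 (34.1% of all genes were) and 1 in replicates 2 and 4, and by at least 1 the numbers were 3 (2.91% of all genes) and 0. The median gap was -0.61. Msmo1, a sterol methyl oxidase, stood at 9.87, 8.88, 9.85 and 8.61 with 10.99 to 11.47 untreated and 9.39 to 9.87 with chrysin. Here replicates 1 and 3 overlapped the chrysin values and replicates 2 and 4 lay below them. Hmgcs1, the HMG-CoA synthase, followed at 5.66, 4.70, 5.52 and 4.40 with 7.31 to 8.16 untreated.

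Of 16 fatty acid synthesis genes 13 had replicates 1 and 3 higher by some gap and 0 the reverse. Over all genes the shares were 34.1% and 34.6%, and the median gap of the list was -0.47. Scd2, a stearoyl-CoA desaturase, stood at 13.49, 11.83, 13.44 and 11.83, with 13.64 to 13.91 untreated and 11.56 to 11.89 with chrysin. Scd1 stood at 12.14, 10.99, 11.96 and 10.94, with 12.79 to 12.97 and 11.34 to 11.55. Replicates 1 and 3 of Scd2 lay just below untreated, and replicates 2 and 4 lay among the chrysin libraries.

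NRF2 targets, the antioxidant and detoxifying genes, lay above untreated in both pairs in 22 of 26 kept members, beside 22.2% of all genes. With apigenin 22 rose and 1 fell, beside 23.0% and 23.2% of all genes. By some gap 18 were higher in replicates 1 and 3 (34.1% of all genes were) and 5 in replicates 2 and 4 (34.6%). The median gap was -0.23, and by at least 1 the numbers were 3 (2.91% of all genes) and 0. Gsta4, a glutathione transferase, stood at 11.48, 9.86, 11.45 and 9.88, with 9.68 to 9.76 untreated and 9.13 to 9.76 with chrysin. Nqo1, a quinone reductase, stood at 10.41, 8.96, 10.62 and 8.92, with 8.02 to 8.15 and 8.32 to 8.72. Gstm1 stood at 11.66, 10.45, 11.79 and 10.38, with 9.94 to 10.11 and 8.77 to 9.23. In all 3 the high values were those of replicates 1 and 3, and replicates 2 and 4 exceeded the untreated range by less. Gstm1 rose with apigenin and fell with chrysin (1.05 ± 0.29, adjusted p = 0.0116 and -1.04 ± 0.29, adjusted p = 0.0108). Fth1, ferritin heavy chain, was at 14.60, 13.93, 14.58 and 13.97 above 13.10 to 13.28 untreated.

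Aryl hydrocarbon receptor targets gave 3 of 8 kept genes higher in replicates 1 and 3 by at least 1 and 0 the reverse. Over all genes the shares were 2.91% and 2.66%. Nqo1 is shared with the NRF2 list. Cyp1b1, a cytochrome P450 of xenobiotic oxidation, stood at 12.04, 10.39, 11.87 and 10.43, with 11.68 to 11.81 untreated and 9.96 to 10.02 with chrysin. Untreated levels of Cyp1b1 lay between the pairs, with replicates 2 and 4 near chrysin. Ahrr, the repressor of the receptor, chosen after its values were seen, was at 7.05, 4.88, 6.85 and 4.69 with 7.69 to 7.92 untreated and 5.90 to 6.25 with chrysin, so all 4 libraries lay below untreated.

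**Figure D4:**
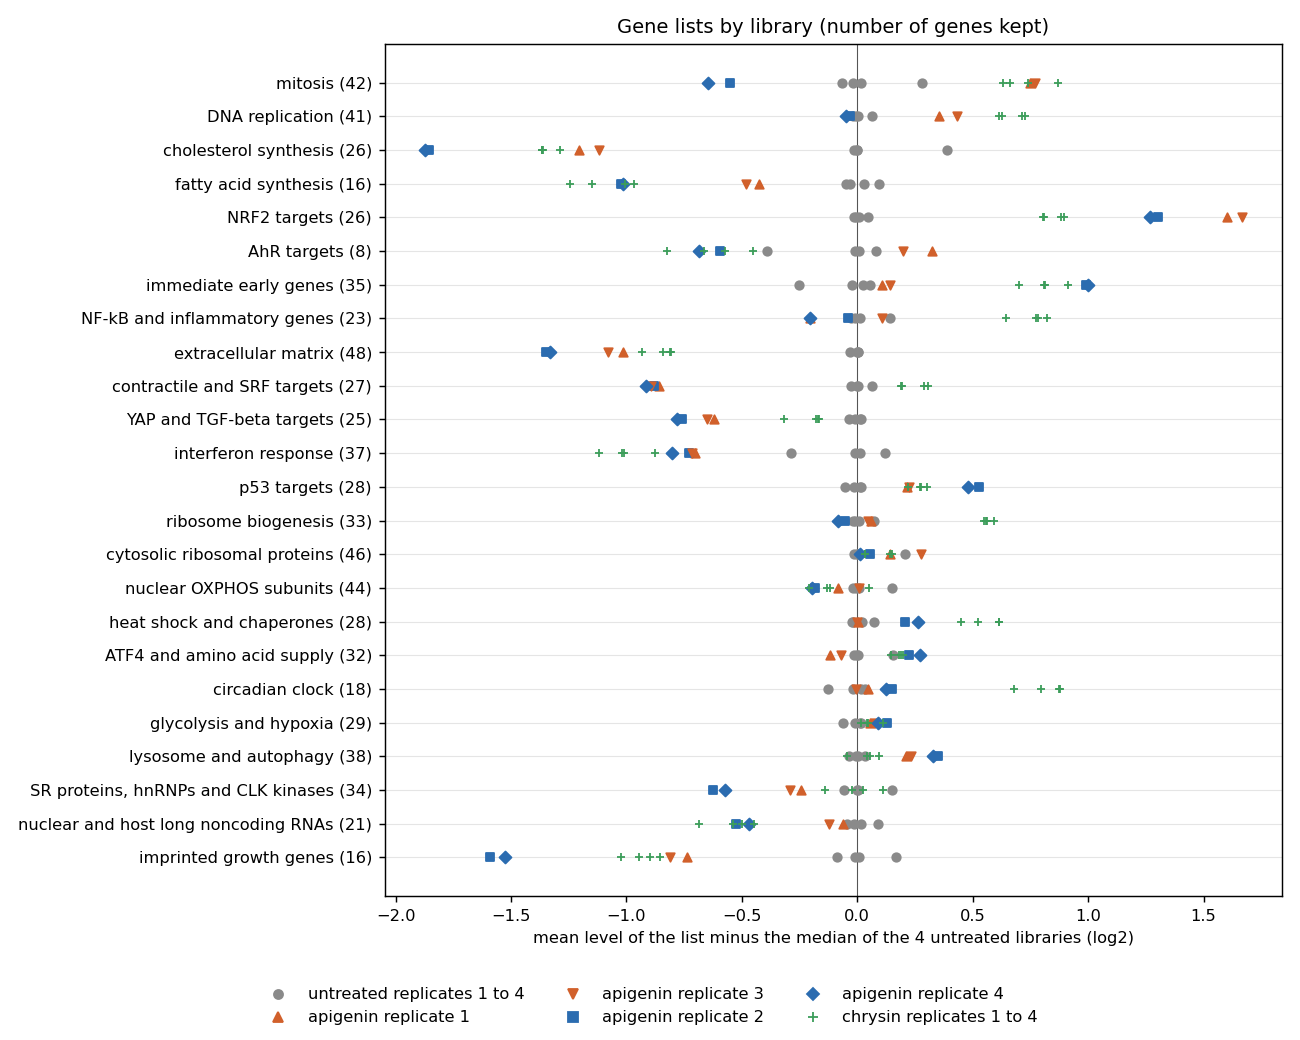
Each row is a gene list with its number of kept genes, and symbols give the mean level of the list in each library minus the median of the 4 untreated libraries (log2). The mitosis list puts apigenin replicates 1 and 3 at 7.08 and 7.10 above, and replicates 2 and 4 at 5.78 and 5.69 below, the untreated libraries (6.27 to 6.61), whereas the contractile list puts all 4 together at 10.77 to 10.83.

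Of 48 matrix genes 34 lay below untreated in both pairs and 4 above in both, where 22.8% and 22.2% of all genes did. In the same list 10 were higher in replicates 1 and 3 and 1 (Spp1) in replicates 2 and 4 by at least 1. Over all genes the shares were 2.91% and 2.66%, and the median gap of the list was -0.06. Col3a1, a fibrillar collagen, stood at 11.83, 10.44, 11.79 and 10.32, with 13.88 to 14.03 untreated and 10.89 to 11.05 with chrysin. Fbn2, a fibrillin, stood at 7.31, 5.89, 7.58 and 5.46, with 9.98 to 10.46 and 7.35 to 8.02. Replicates 2 and 4 lay below all chrysin values in both genes. Of the 13 fibroblast markers 10 lay below untreated in both pairs and 1 above in both, where 22.8% and 22.2% of all genes did. Their median gap was -0.33. By at least 1, 3 markers (Dcn, Col3a1 and Lum) were higher in replicates 1 and 3 (2.91% of all genes were) and 0 the reverse. Pdgfrb, a PDGF receptor, came close to that size at 10.53, 9.55, 10.77 and 9.49 with 11.78 to 11.99 untreated. The summed normalized count of the fibroblast markers was 180235, 186334, 169415 and 190738 in apigenin replicates 1 to 4, below the untreated range of 242208 to 258253.

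Imprinted growth genes stood lower in replicates 2 and 4. Of 16 kept members 5 were higher in replicates 1 and 3 by at least 1, where 2.91% of all genes were, with a median gap of -0.42, and 12 fell with apigenin, where 23.2% of all genes did. Mest, an imprinted gene of mesoderm, was at 8.18, 6.54, 7.96 and 6.64 with 11.00 to 11.36 untreated, and Ndn, necdin, at 8.99, 7.72, 9.07 and 7.76 with 9.29 to 9.81. H19, a noncoding RNA next to Igf2, was at 13.12, 11.69, 13.08 and 11.81 with 13.50 to 14.10 untreated, the highest untreated value again being that of replicate 1. All 4 libraries lay below untreated in these 3 genes, and replicates 2 and 4 lay lowest.

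Of 21 long noncoding RNAs 3 were higher in replicates 1 and 3 by at least 1, where 2.91% of all genes were. Neat1, the scaffold of paraspeckles, stood at 11.85, 10.33, 11.85 and 10.24, with 11.50 to 11.87 untreated and 7.63 to 8.38 with chrysin. Dnm3os, a host of microRNAs, stood at 11.25, 9.77, 11.00 and 9.50, with 11.07 to 11.36 and 7.52 to 8.55. Meg3 stood at 11.69, 10.74, 11.69 and 10.67, with 11.90 to 11.99 and 10.75 to 11.24. In Neat1 and Dnm3os replicates 1 and 3 were at or near untreated values, and replicates 2 and 4 lay between those and the much lower chrysin values. For Neat1 the highest untreated value was that of replicate 1 (11.87). Apigenin replicates 1 and 3 lay above the other untreated libraries (11.50 to 11.55).

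Smad7, the feedback inhibitor of TGF-beta signalling, stood at 7.66, 9.01, 7.76 and 9.04, with 7.74 to 8.06 untreated and 9.76 to 9.90 with chrysin. Replicates 2 and 4 were above untreated on the side of chrysin, and replicates 1 and 3 lay within the untreated range or just below it. Amotl2, a YAP target, ran the other way at 9.68, 8.10, 9.60 and 8.04, below 11.25 to 11.39 untreated. In the YAP and TGF-beta list of 25 genes, 2 were higher in each direction by at least 1, where 2.66% and 2.91% of all genes were. By some gap 9 were higher in replicates 2 and 4 and 10 in replicates 1 and 3, where 34.6% and 34.1% of all genes were.

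Vcam1, an adhesion molecule, stood at 9.02, 7.03, 8.69 and 7.23 with 9.84 to 9.93 untreated, and the chemokine Cxcl12 at 11.48, 10.14, 11.41 and 10.05 with 11.92 to 11.99. Both were below untreated in all 4 libraries and lowest in replicates 2 and 4. Of 23 NF-kB and inflammatory genes 6 were higher in replicates 1 and 3 and 3 in replicates 2 and 4 by at least 1, while by some gap the numbers were 7 and 10. Of 37 interferon response genes the corresponding numbers were 4 and 3 by at least 1, and 11 and 14 by some gap. Over all genes the shares in the same order were 2.91% and 2.66% by at least 1, and 34.1% and 34.6% by some gap. Ifit2 was at 8.66, 7.33, 8.56 and 7.48 with 9.08 to 9.44 untreated. The peptide transporter Tap1 was at 7.60, 8.90, 7.85 and 8.91 with 6.76 to 7.03, so the same list held genes of both directions.

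Among 28 p53 targets Pmaip1 alone had a gap of at least 1, where 2.66% of all genes had one with replicates 2 and 4 higher. Gadd45a, a growth arrest gene, came close at 10.14, 11.09, 10.12 and 11.15, with 7.71 to 8.34 untreated. Slc2a1, the glucose transporter GLUT1, stood at 9.68, 10.89, 9.74 and 10.88, with 8.34 to 8.50 untreated and 9.07 to 9.39 with chrysin, and its rise with apigenin was called (1.89 ± 0.25, adjusted p = 4.37e-05). The endoplasmic reticulum chaperone Hspa5 stood at 12.44, 13.25, 12.37 and 13.30 with 12.47 to 12.70 untreated, and Ddit3, the stress factor CHOP, at 8.65, 9.42, 8.63 and 9.57 with 8.41 to 8.87. Replicates 2 and 4 were higher in Gadd45a, Slc2a1, Hspa5 and Ddit3, by a gap of 0.78 to 1.13 on the log2 scale.

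A gap of at least 1 was found in 0 of 46 cytosolic ribosomal proteins, 0 of 44 nuclear subunits of oxidative phosphorylation, 0 of 33 ribosome biogenesis genes, 0 of 28 heat shock genes, 0 of 27 contractile and SRF target genes and 0 of 34 splicing factors, where 2.66% of all genes had one in one direction and 2.91% in the other. Smaller gaps ran one way in some of these lists. By some gap 32 of the 46 ribosomal proteins were higher in replicates 1 and 3 and 0 the reverse, and among the 44 subunits of oxidative phosphorylation the numbers were 21 and 2, where 34.1% and 34.6% of all genes were. The mean level of the contractile list was 10.83, 10.81, 10.80 and 10.77 in the apigenin libraries, all below untreated (11.66 to 11.75) and chrysin (11.88 to 12.00). Of the splicing factors 24 were higher in replicates 1 and 3 by some gap and 1 the reverse, with a median gap of -0.25 and list levels of 9.71, 9.33, 9.66 and 9.38. The largest gap was that of Hnrnpm (-0.95), an RNA-binding protein, at 11.16, 9.97, 11.07 and 10.11 with 11.30 to 11.63 untreated.

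Some of the largest changes were shared by all 4 libraries. Hmox1, heme oxygenase, stood at 13.70, 13.78, 13.88 and 13.68, with 10.09 to 10.33 untreated. Srxn1, which repairs peroxiredoxins, stood at 12.01, 12.15, 12.07 and 12.12, with 8.59 to 8.94, and the metallothionein Mt2 at 12.07, 12.30, 12.31 and 12.28, with 8.65 to 9.00. These 3 rose by 3.34 to 3.54 (adjusted p = 6.26e-13 or less). Eln, elastin, stood at 7.49, 7.47, 7.40 and 7.55, with 10.84 to 11.42 untreated, Col11a1 at 8.63, 8.47, 8.41 and 8.51, with 11.75 to 11.84, and the growth factor Ptn at 7.93, 7.86, 8.01 and 8.09, with 11.15 to 11.44. Thbs1, thrombospondin, stood at 13.37, 13.04, 13.25 and 13.03, with 16.44 to 16.69. All but Thbs1 were named for a span under 0.3 among the 4 apigenin values, so their small distance between the pairs follows from the choice. The apigenin library nearest to the untreated range differed from it by 3.07 to 3.36 in the 3 genes that rose and by -3.29 to -3.06 in the 4 that fell.

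Genes of the X chromosome stood lower in replicates 2 and 4. Over 408 kept X-linked genes the median difference from untreated was -0.06, -0.32, -0.13 and -0.31 in apigenin replicates 1 to 4 and -0.27 to -0.14 with chrysin. Of these genes 22 (5.39%, beside 2.91% of all genes) were higher in replicates 1 and 3 by at least 1 and 6 (1.47%, beside 2.66%) in replicates 2 and 4. Among the autosomes, chromosomes 1 and 15 came nearest with 4.75% and 4.43% higher in replicates 1 and 3. Xist, the noncoding RNA that coats the inactive X chromosome, stood at 12.01, 10.77, 11.65 and 10.92, with 11.27 to 11.50 untreated and 10.02 to 10.79 with chrysin. All untreated values of Xist lay between the pairs, with replicates 1 and 3 above. The Y-linked genes Kdm5d (7.01, 4.37, 6.58 and 4.85), Uty (6.79, 5.01, 6.68 and 5.64), Ddx3y (7.77, 7.18, 7.58 and 7.36) and Eif2s3y (8.18, 7.07, 7.79 and 6.93), chosen after their values were seen, were also lower in replicates 2 and 4. Xist and these Y-linked genes were read in every library.

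Of 9 macrophage and leukocyte markers 8 were kept, with summed normalized counts of 1930, 1666, 1946 and 1519 in the apigenin libraries in order of replicate, beside 1048 to 1226 untreated and 915 to 1038 with chrysin. Only 1 of the 8, Cd68, rose with apigenin and 0 fell, where 23.0% and 23.2% of all genes did. Cd68 stood at 9.86, 9.69, 9.64 and 9.59 with 8.09 to 8.40 untreated. Lyz2, at 9.73, 9.54, 9.92 and 9.34 with 9.31 to 9.59 untreated, was not called (limma adjusted p = 0.325). The pericyte and smooth muscle list (8 of 8 kept) summed to 1429, 2267, 1454 and 2432, with 2864 to 2992 untreated. Neural markers (5 of 8 kept) summed to 2306, 2878, 2246 and 2765 (4848 to 6173 untreated), where Stmn2 was at 10.17, 11.27, 10.27 and 11.18 and Map2, a microtubule protein, at 10.10, 8.48, 9.90 and 8.73. Endothelial markers (2 of 8 kept) summed to 18.2 to 27.0 with apigenin, 74.9 to 95.7 untreated and 38.9 to 70.3 with chrysin, with Tie1 and Cldn5 at 0 throughout. Epithelial markers (1 of 9 kept) summed to 20.1 to 48.6, 38.8 to 73.2 and 55.2 to 67.5 in the same order, with Krt14 at 0, and skeletal muscle markers (1 of 6 kept) to 272 to 544, 168 to 249 and 623 to 715, with Ckm at 0. Adipocyte markers (2 of 6 kept) summed to 121 to 162, 191 to 334 and 366 to 492, with Cfd and Lep at 0. Cartilage and bone markers (4 of 8 kept) summed to 629 to 855, 820 to 971 and 563 to 665. Erythroid markers (0 of 7 kept) summed to at most 0.963 with apigenin and 3.18 untreated and to 0 with chrysin, with Hba-a1, Hba-a2, Hbb-b1 and Hbb-b2 at 0. The part of these lists in the division of the pairs was not tested.

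Chrysin offers a comparison that uses no apigenin library in its difference. Of the 325 genes higher in replicates 2 and 4, 176 rose and 11 fell with chrysin, and of the 355 higher in replicates 1 and 3, 18 rose and 191 fell, where 26.3% of all genes rose and 26.7% fell. The 12-library fit shares its spread with the divided apigenin libraries. Fitted on the chrysin and untreated libraries alone, 206 of the 325 rose and 22 fell, and 49 of the 355 rose and 232 fell, where 28.8% of all genes rose and 29.1% fell. Hbegf, Igf2 and Kitl were not called in the first fit and were called in the second (adjusted p = 9.36e-11, 6.61e-09 and 1.1e-07). Across the 12198 genes the gap and the chrysin difference had Pearson r = 0.48 and Spearman rho = 0.43, a description across genes, which are not independent and share library depth and base composition.

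In the mitosis list the gap was negative in 36 of 42 genes, where 34.1% of all genes had a negative gap, while 0 fell with chrysin in either fit. The number that rose was 12 in the 12-library fit, near the share of all genes, and 28 in the fit without apigenin. Relative to chrysin, replicates 2 and 4 were nearer in 180 of the 325 genes and 128 of the 355, and replicates 1 and 3 nearer in 119 and 191. Neither pair was nearer to the chrysin libraries throughout.

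**Figure D5:**
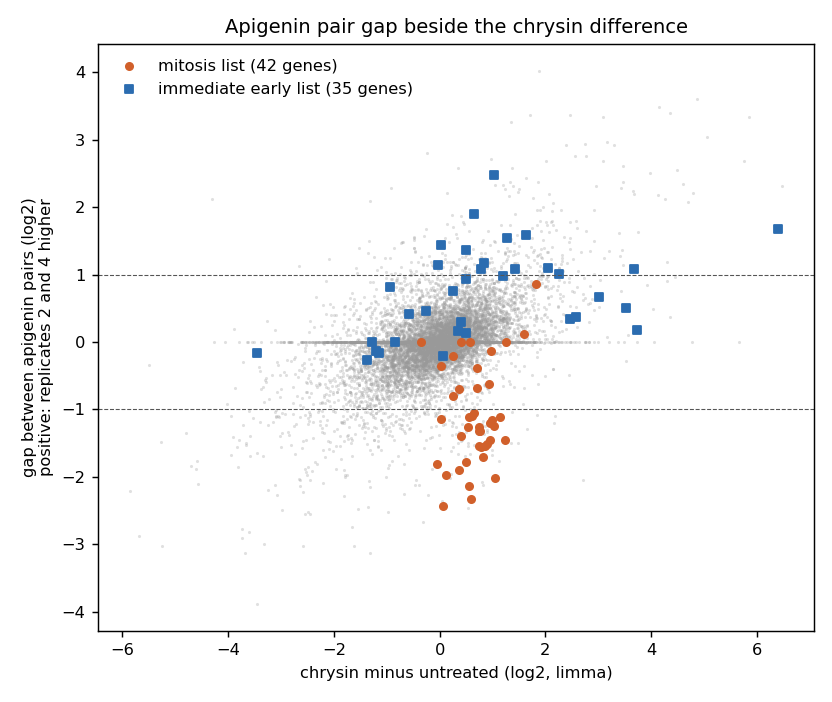
Each grey point is 1 of 12198 genes, with the chrysin minus untreated difference (log2, limma) on the horizontal axis and the signed gap between the apigenin pairs on the vertical axis, where positive values mean that replicates 2 and 4 were higher and dashed lines mark a gap of 1. Mitosis genes (orange) lie mostly below -1 with chrysin differences at or above 0, and immediate early genes (blue) mostly above 0.

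The genes that divided the pairs also spread more in the other groups. The 4 untreated values spanned at least 1 in 128 of the 325 genes (39.4%) and 49 of the 355 (13.8%), where 9.88% of all genes did, and the 4 chrysin values in 102 (31.4%) and 135 (38.0%), where 17.9% did. Their median levels were 5.58 and 6.10, beside 7.91 over all genes kept. Untreated replicate 1 was the lowest of its group in 139 of the 325 genes (42.8%) and the highest in 180 of the 355 (50.7%), beside 34.1% and 32.3% of all genes kept. The other untreated libraries were lowest in 54 to 64 of the 325 genes and highest in 47 to 79 of the 355. Its depth, 4865169 reads, was the lowest of the untreated group. Without that library, 25 genes in place of 13 had the pairs on opposite sides of untreated by at least 0.5. Leaving out an untreated library can only raise this count, which was 15, 15 and 18 without untreated replicates 2, 3 and 4. The gap itself uses no untreated library.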

How the data were processed

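Polyadenylated RNA of mouse fibroblasts was sequenced in 12 libraries with a stranded mRNA kit, per the labels' protocols. The submitters' processing notes name cutadapt, FastQC, STAR, HTSeq, DESeq2 and the mm9 build. Versions, annotation and strand setting were not given in the sources used here. Reads of overlapping genes may be shared. The table deposited by the authors holds log2 of normalized counts plus 1, per gene and library, with no raw counts. Low values were whole multiples of 1 read in 99.9657% or more of cases per library (values under 500 reads, within 0.05 reads), which gave the depth of each library. As the deposited unit is log2, no count test was run as the main result.

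Genes averaging a normalized count of 10 or more were kept, and 27 names that a spreadsheet had turned into dates were restored. Treated groups were compared with untreated libraries by limma 3.58.1 in R 4.3.3, with 1 mean per group over all 12 libraries, trend and robust variances, two-sided tests and Benjamini-Hochberg adjustment, called at an adjusted p under 0.05. The gap between apigenin replicates 1 and 3 and replicates 2 and 4 was counted at 1 or more on the log2 scale. Fold changes on the log2(value + 1) scale understate the change of low genes. The members and gene lists were chosen with earlier results of these data known.

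Genes named by rule had a mean level no lower than the median kept gene, except that 7 were taken regardless of value. The rules took the 10 largest gaps in each direction and up to 8 genes with the pairs on opposite sides of untreated. They also took the 6 farthest from untreated with 4 apigenin values spanning under 0.3, and up to 4 of largest gap in each list. Y-linked genes, pseudogenes and predicted genes were skipped. Other genes are named to complete a count or with the remark that they were chosen after their values were seen. Their mean level may be lower. Replicate numbers were checked for pairing across groups. The correlations of deviations from group means were -0.0958 to 0.102, and the numbers were not treated as pairs. Alternatives were other scalings, filters, pseudocounts, gap sizes and leaving out libraries. The limma fit was tested on simulated counts with known changes, and the other steps were not. Results for a few genes of these lists are not reported here.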

Additional observations from a re-analysis of the deposited data

Results flagged for a closer look

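Of 324 groups of 4 values examined (84 genes and 24 lists, in each treatment), 27 held a library whose gap to its nearest neighbour exceeded Dixon's critical share of the group's range. Chance alone would set apart about 1 in 20 groups. Untreated replicate 1 accounted for 16 of the 27 and chrysin replicate 3 for 4, and 1 lay in an apigenin library. Most of these genes were named for a division of the apigenin libraries into pairs, which leaves no single library apart, so the low number there follows from the choice of genes. All values are levels on the log2 scale.

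Untreated replicate 1 lay below the other untreated libraries in Spp1 (11.98), Prl2c2 (5.93), Slc5a7 (6.81), Cxcl12 (11.92), Tap1 (6.76) and Stmn2 (10.71). It lay above them in C1qtnf3 (11.19), Eln (11.42), Scd2 (13.91), H19 (14.10), Neat1 (11.87) and the arginine transporter Slc7a1 (9.58). The mean levels of the lists for cholesterol synthesis (9.91), cytosolic ribosomal proteins (11.81), oxidative phosphorylation (9.49) and ATF4 targets (9.25) were also highest there.

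Chrysin replicate 3 stood apart in Kitl (8.81), Slc7a1 (10.17), the cholesterol list (8.23) and the YAP and TGF-beta list (9.69). Chrysin replicate 2 stood apart in Mafk (10.37) and Cdkn1a (11.98), and chrysin replicate 4 in Egr1 (12.37). Untreated replicate 3 did so in Mafk (7.97) and Ahrr (7.69), and untreated replicate 2 in the matrix list (11.89). Apigenin replicate 1 lay below the other apigenin libraries in Mt2 (12.07). The causes were not tested.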

How the results depend on the processing

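In 50 genes named for large gaps, the gap stayed at 1 or more under quantile normalization, centring and both pseudocounts, while the other filters and leaving out a library could not narrow it. The mitosis count of 28 stayed at 25 to 30 and the immediate early count of 14 at 11 to 16. Counts over all genes moved more. Without the filter 556 genes were higher in replicates 2 and 4, and with a mean count of at least 50 the numbers were 188 and, for replicates 1 and 3 higher, 236. Gaps of at least 0.5 gave 1123 and 1108 genes, and of at least 2 gave 56 and 51. Leaving out 1 apigenin library gave 455 to 590 and 486 to 580, where a lone library stands for its pair, so counts can only rise. Genes with the pairs on opposite sides of untreated, 13 here, numbered 43 at a distance of 0.25 and 0 at a distance of 1. They numbered 8 with a mean count of at least 50 and 8 with a pseudocount of 4. With 1 apigenin or untreated library left out they numbered 15 to 29 (25 without untreated replicate 1), a count that can only rise. Centring on the median gave 287 and 388 genes in place of 325 and 355. Without the apigenin libraries 22 of the 325 fell and 49 of the 355 rose with chrysin, in place of 11 and 18, an alternative chosen after seeing the data. With 1 chrysin or untreated library left out, 161 to 169 of the 325 rose and 9 to 12 fell, and 11 to 15 of the 355 rose (11 without chrysin replicate 3) and 175 to 185 fell. With 1 library left out, apigenin gave 2331 to 2910 genes that rose and 2438 to 2950 that fell, and chrysin 2899 to 3297 and 2849 to 3346. With apigenin replicates 1 and 3 only, 2024 genes rose and 2302 fell, and with 2 and 4 only, 3330 and 3370. With replicate number as a block, 2723 genes rose and 2758 fell with apigenin (2807 and 2824 without), and 3121 and 3158 with chrysin. Low depth limits genes near the count minimum, where 3 reads correspond to a normalized count of up to 6.24.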

Other observations

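Regulators of the cell cycle outside the mitosis list did not all follow it, and the genes given here were chosen after their values were seen. Mki67, a marker of cycling cells, stood at 9.61, 7.65, 9.23 and 7.74 in apigenin replicates 1 to 4, with 8.59 to 8.90 untreated and 9.80 to 10.19 with chrysin. Foxm1, a transcription factor of mitotic genes, stood at 7.57, 6.41, 7.55 and 6.60, with 6.74 to 7.59 untreated. Both were low in replicates 2 and 4, below every untreated library.

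Mybl2, which joins the MuvB core in S phase, stood at 5.66, 6.72, 5.61 and 6.55, with 4.23 to 5.21 untreated and 6.88 to 7.07 with chrysin. It was above untreated in all 4 apigenin libraries and highest in replicates 2 and 4, the reverse order of the mitosis genes. E2f1, a factor of S phase entry, stood at 8.90, 9.19, 9.03 and 9.18 above 8.28 to 8.43 untreated, with a gap of 0.14. Ccnd1, cyclin D1, stood at 11.24, 11.77, 11.17 and 11.74, below untreated (12.10 to 12.28) in all 4 libraries, whereas chrysin gave 13.05 to 13.28. Ccnd1 fell with apigenin (-0.76 ± 0.12, limma adjusted p = 8.71e-05) and rose with chrysin (0.96 ± 0.12, adjusted p = 6.34e-06).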
